A study of Homo sapiens with 4 samples.

Results

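The distal H3K27ac regions of untreated KGN cells are the called regions that lie away from annotated gene starts and outside gene bodies in the authors' annotation. They were chosen by that annotation alone, as regions placed between genes ("Distal Intergenic") or just past a gene's end ("Downstream"), on chromosomes 1 to 22 and X. They number 3266 of the 19110 regions of the control table (17.1%, Wilson 95% interval 16.6 to 17.6) and cover 1548 kb. Of these, 3079 lay between genes and 187 lay past a gene's end, 78 of them within 1 kb of it. KGN is an established line from a human granulosa cell tumor, labelled here as an immortalized granulosa cell of ovarian tissue. Chromatin carrying acetylated lysine 27 of histone H3 was immunoprecipitated (IP) and sequenced in 1 library from control cells and 1 from cells given testosterone at 10 um for 24 h, each with its own input library. All cells were grown in the same medium with serum. The series title concerns a reduction of the mark by testosterone.

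Acetylation of H3 lysine 27 neutralizes a charge on the histone tail and is laid down by the acetyltransferases p300 and CBP at active promoters and enhancers. Enhancers lie at any distance from their genes, are bound by cell type specific transcription factors and often occur in dense groups at genes that define a cell. In granulosa cells such elements are known to serve genes for steroid synthesis and for the response to gonadotropins, with FOXL2 and NR5A1 among the factors that bind them. Annotated distance alone does not show that a region is an enhancer, since unannotated transcripts, long non-coding RNAs (lncRNAs) and small RNA genes also start outside coding genes.

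There was 1 IP library per condition, so no value has a replicate check and no test between the conditions was possible. Intervals are Wilson 95% intervals for shares and order-statistic 95% intervals for medians, and they cover counting error only. Neighboring regions share a library and often a locus. Total reads were not used. The lowest local backgrounds (1.09 in control cells and 1.16 after testosterone), the shortest regions (231 and 223 bp, read as fragment lengths) and the control pileup step of 0.937 together put the inferred IP depth after testosterone at 1.03 times the control depth. Of 12 granulosa marker genes 1, FOXL2, had a control promoter region, where the share of all coding genes was 42.7%. Any control region was present at 2 of the 12, FOXL2 and NR5A1. Of 5 epithelium markers 4 had one, EPCAM, KRT8, KRT18 and PAX8, as did 2 of 6 theca and stroma, 2 of 6 oocyte, 1 of 5 blood and 0 of 4 endothelium markers. The share of all genes with any control region was not computed, so these counts have no base share. For promoter regions, the measure of the 42.7%, the counts were 3 of 5 epithelium, 0 of 6 theca and stroma and 2 of 6 oocyte markers. They were 1 of 5 for blood and 0 of 4 for endothelium.

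Sequences are shown first for distal regions that hold the start of a RefSeq gene. In 76 distal regions, 83 RefSeq start windows lay wholly inside, 66 of them of lncRNAs. A window runs from 250 bases before to 50 bases after the start. The 3 windows below were chosen after their values were seen. LNC-LBCS has the strongest such region, LINC00963 lies in the densest locus, and MIR17HG is the host of the miR-17 cluster. They are read 5′ to 3′ along the gene from RefSeq on GRCh38.p14, with capitals marking matches on either strand to AP-1 (TGANTCA), CRE (TGACGTCA), CCAAT box (CCAAT), TATA box (TATAAA), an NR5A1 site (CAAGGTCA) or an ETS site (CCGGAAGT).
LNC-LBCS: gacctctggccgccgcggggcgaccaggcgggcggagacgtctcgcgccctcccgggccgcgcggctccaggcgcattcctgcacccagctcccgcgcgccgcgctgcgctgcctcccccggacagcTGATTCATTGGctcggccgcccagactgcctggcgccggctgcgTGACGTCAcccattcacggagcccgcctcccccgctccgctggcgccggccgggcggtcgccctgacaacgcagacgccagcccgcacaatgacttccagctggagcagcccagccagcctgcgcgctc
LINC00963: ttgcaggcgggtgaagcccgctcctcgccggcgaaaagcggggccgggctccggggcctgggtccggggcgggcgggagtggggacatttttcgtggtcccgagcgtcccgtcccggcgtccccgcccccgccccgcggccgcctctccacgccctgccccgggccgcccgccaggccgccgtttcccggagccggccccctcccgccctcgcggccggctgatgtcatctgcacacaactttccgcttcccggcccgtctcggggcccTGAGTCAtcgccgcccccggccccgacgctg
MIR17HG: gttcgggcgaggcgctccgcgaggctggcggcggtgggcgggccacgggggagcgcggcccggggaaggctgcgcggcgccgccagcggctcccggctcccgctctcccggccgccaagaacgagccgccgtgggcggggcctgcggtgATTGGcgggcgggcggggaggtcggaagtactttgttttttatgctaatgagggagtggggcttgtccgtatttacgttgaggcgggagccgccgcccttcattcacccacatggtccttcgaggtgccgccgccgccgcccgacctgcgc

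The LNC-LBCS window is at chr6:19804710-19805009 on the minus strand and the LINC00963 window at chr9:129488410-129488709 on the plus strand. The MIR17HG window is at chr13:91347437-91347736 on the plus strand. The regions that hold them had a control fold of 13.8, 11.0 and 9.0, in that order, and none of the 3 was overlapped by a testosterone region. Of all distal regions 0.949% were overlapped, and of all control regions 0.884%, so none in a set this small is near that share. The GC content was 76%, 78% and 73%, and each window had 41 to 43 CpG dinucleotides. The LNC-LBCS window holds an AP-1 match that overlaps a CCAAT box, and a CRE match after it. LINC00963 holds an AP-1 match and MIR17HG a CCAAT box.

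Over all 83 windows the median GC content was 67.3% and the median number of CpG dinucleotides 26. The 34961 windows of the RefSeq table had medians of 58.7% and 14, and the 12829 of lncRNAs 50% and 5. Windows inside control promoter regions were richer still, at 70.7% and 32 (3042 windows). Start windows in distal regions were thus closer in composition to those in promoter regions than to the lncRNA table at large.

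CRE, the element bound by CREB and ATF factors that respond to cyclic AMP, matched in 9 of the 83 windows (10.8%), in 3.71% of the windows in promoter regions and in 1.85% of all windows. Some windows overlap, and the 9 come down to 7 places in 7 regions. AP-1 matched in 9.64% of the 83, in 3.02% of those in promoter regions and in 7.68% of all. The CCAAT box matched in 28.9%, 23.8% and 34.6%, and the TATA box in 8.43%, 2.27% and 11.5%. The ETS site matched in 2.41%, 9.07% and 4.14%, and the NR5A1 site in 0%, 0.493% and 1.29%. A match is a run of letters and does not show binding. The 7 places are printed with 10 bases on each side, because CRE had the widest gap to all windows of the 6 motifs, with the match in capitals and read along the gene named.
LNC-LBCS: gccggctgcgTGACGTCAcccattcacg
STAG3L5P-PVRIG2P-PILRB: gtcgagtccgTGACGTCAaagagcctgg
LINC03011: cccgcgcctgTGACGTCAgctgaggcgc
LINC03143: tcacagaggcTGACGTCAgcgggtcccg
LINC00265: ccagctaccgTGACGTCAcgagaccccc
PTPRS: gcggaagggaTGACGTCAccggctgggg
LOC124903896: cccgcggcccTGACGTCAgcccgccccg

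These runs are at chr6:19804821-19804848 (minus), chr7:100336034-100336061 (plus), chr7:66493596-66493623 (plus), chr3:50260185-50260212 (plus), chr7:39733360-39733387 (plus), chr19:5340849-5340876 (minus) and chr17:2050030-2050057 (minus), in the order printed. Their regions had control folds of 13.8, 10.0, 6.94, 5.45, 5.15, 4.0 and 3.57. None of the 7 was overlapped by a testosterone region, where the share of all distal regions was 0.949%. The last of them lies in the same region as the hairpins of miR-132 and miR-212 described next.

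Of 1562 microRNA (miRNA) hairpins in the RefSeq table, 12 were overlapped by 9 distal regions, 78 by any control region and 1 by any testosterone region. miRNAs are short RNAs that pair with messenger RNAs through their seed, bases 2 to 8. The mature sequences below, with the seed in capitals, are of the 2 hairpins that share a seed, of let-7i and miR-210, and of 3 hairpins overlapped by 1 region.
hsa-miR-132-3p: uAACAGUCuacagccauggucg
hsa-miR-212-3p: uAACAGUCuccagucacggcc
hsa-let-7i-5p: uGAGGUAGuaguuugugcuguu
hsa-miR-210-3p: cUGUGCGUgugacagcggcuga
hsa-miR-23a-3p: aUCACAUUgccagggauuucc
hsa-miR-27a-3p: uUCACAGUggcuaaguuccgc
hsa-miR-24-3p: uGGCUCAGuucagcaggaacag

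miR-132-3p and miR-212-3p have the same seed, AACAGUC, and their hairpins lie on chromosome 17 in 1 region of fold 3.57 and 1227 bp, nearest to HIC1. let-7i, of the let-7 family that limits proliferation, lay in a region of fold 5.16 and 1460 bp. miR-210, known for its induction by low oxygen, lay in a region of fold 5.12. The hairpins of miR-23a, miR-27a and miR-24-2, which are made from 1 transcript, were met by a region of fold 4.23 on chromosome 19. The largest fold of the 9 regions was 13.4, at MIR6077 on chromosome 1. None of the 9 was overlapped by a testosterone region, where the share of all distal regions was 0.949%.

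Strength was described by the authors' fold enrichment, the summit signal over the local background, and by the pileup, the fragment signal at the summit. Control pileups rose in steps of 0.937, so they are scaled values and no counts of fragments. The distal regions had a median fold of 4.70 (4.67 to 4.74), with an interquartile range of 4.0 to 5.75 and a full range of 2.22 to 29.2. The intronic regions of the same table had a median of 4.52 (4.47 to 4.55; 2504 regions) and the promoter regions one of 5.26 (5.22 to 5.31; 12697 regions). Distal regions thus lay between these classes, and the medians' intervals did not overlap. The order was the same for the pileup, with medians of 14.1, 12.2 and 17.8 in distal, intronic and promoter regions. Median widths were 356, 330 and 465 bp.

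Strong distal regions were more frequent than strong intronic ones. A fold of at least 10 was reached by 68 distal regions (2.08%), 9 intronic regions (0.359%) and 627 promoter regions (4.94%). A -log10 q of at least 5 was reached by 41.8%, 32.3% and 62.6% of them. Wider regions had larger folds in every class. In the narrowest of 5 equal groups by width the median fold was 4.39 in distal, 4.37 in intronic and 4.64 in promoter regions, and in the widest it was 6.19, 5.39 and 6.50. At like width the distal median stayed below that of promoter regions in each of the 5 groups.

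**Figure D1:**
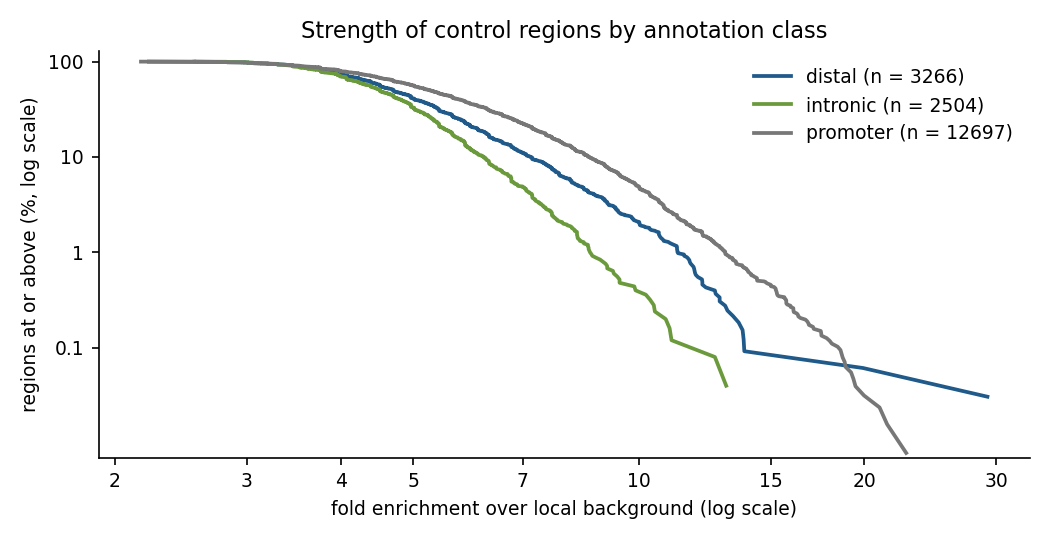
Share of regions (vertical axis, percent, log scale) at or above a given fold enrichment (horizontal axis, log scale) for distal, intronic and promoter regions of the control table. The distal curve runs between the other curves from a fold of about 4 up to the intronic maximum of 13.1, with 2.08% of distal regions at or above 10, and its last points are the 2 regions at PPIAL4F.

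The 2 largest folds, 29.2 and 19.9, belonged to neighboring regions of chromosome 1 at positions 144546495 to 144546812 and 144551883 to 144552204, nearest to PPIAL4F, a copy of the cyclophilin A gene. The second also had the largest pileup, 78.7, and overlaps RNVU1-2A, a variant gene of the U1 small nuclear RNA. This stretch of chromosome 1 holds many near-identical copies, reads from which are hard to place, and how the authors treated such reads is not given in the sources used here. Outside it the largest fold was 13.8 in a region of 2371 bp nearest to NTMT1, which methylates protein N termini (chromosome 9, 129484941 to 129487311), also called after testosterone. Folds of 13.8 were also reached nearest to PRR34 (chromosome 22, 46069276 to 46070733) and to ID4, an inhibitor of bHLH transcription factors, where LNC-LBCS starts. A region of fold 13.6 lay 95 kb upstream of ZMIZ1, a coregulator of transcription related to the PIAS proteins. None of these last 3 was overlapped by a testosterone region, where the share of all distal regions was 0.949%.

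Among the regions of largest pileup, the region nearest to PPIAL4G on chromosome 1 had a pileup of 70.2 at a fold of 10.2. The region 21.5 kb downstream of the start of BTG2, an antiproliferative gene, had a pileup of 57.1 at a fold of 8.30 and was also called after testosterone. The widest region, 3626 bp, had a fold of 5.76 and holds or flanks the tRNA genes TRV-AAC2-1, TRP-TGG3-1 and TRT-TGT6-1 near TRIM7. Among the other widest regions were those near SKI, a repressor of SMAD signaling (3383 bp, holding a start of FAAP20), and NTMT1 (3216 bp). Past a gene's end, the largest fold was 10.3, in a region whose nearest gene was ERN1, an endoplasmic reticulum stress sensor. It lay 15.2 kb upstream of the ERN1 start, so the gene end meant is not that of ERN1. The next were 10.0 near DUSP1, a MAP kinase phosphatase induced by glucocorticoids, and 9.57 near THBS2, which encodes a thrombospondin. The lowest fold, 2.22, was near GOLGA6L6 and had a local background of 10.0, where the median of the distal regions was 2.0. A background of 13.0 was seen on chromosome 21 next to the ribosomal RNA gene RNA45SN2, at a fold of 3.08.

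The distance from a distal region to the start of its nearest gene had a median of 26.1 kb (24.6 to 27.6) and an interquartile range of 11.1 to 62.4 kb. The nearest lay 3016 bp away and the farthest 1984.5 kb away, upstream of FLRT2 on chromosome 14. Within 10 kb of a start were 737 regions (22.6%), from 10 to 50 kb 1529 (46.8%), from 50 to 100 kb 504 (15.4%), from 100 to 500 kb 449 (13.7%) and beyond 500 kb 47 (1.44%). More of them lay upstream of the gene start than downstream, 1943 of 3266 (59.5%, 57.8 to 61.2). The annotation rule leaves out regions inside gene bodies, which lie downstream of their gene's start. This split is thus shaped by the rule and does not show a preference for a side. The median fold hardly moved with distance, at 4.68, 4.70, 4.75, 4.65 and 4.52 from the nearest to the farthest of these groups.

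**Figure D2:**
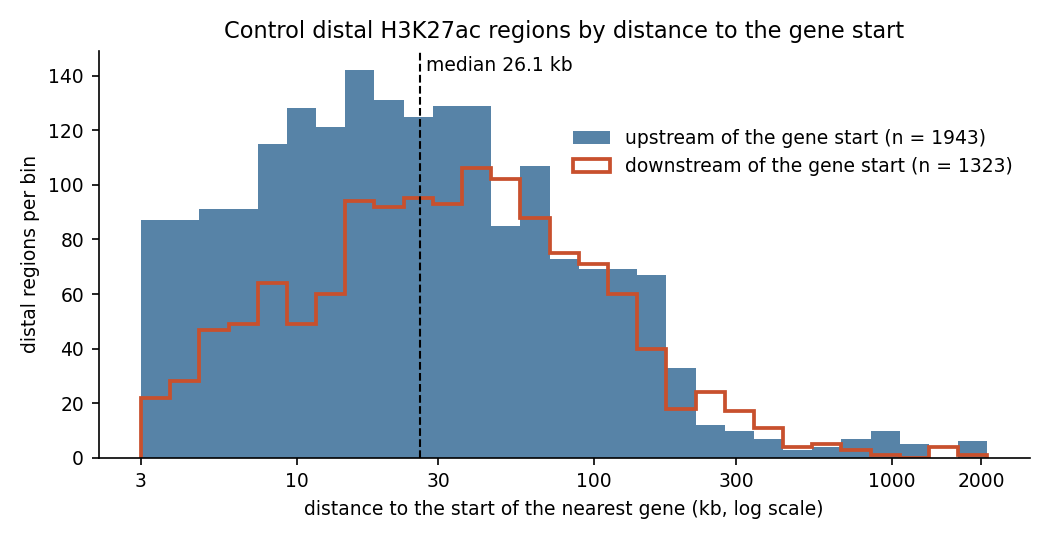
Number of distal control regions per bin (vertical axis) by distance to the start of the nearest gene (horizontal axis, kb, log scale), for regions upstream (filled) and downstream (outline) of it. The upstream regions outnumber the downstream ones close to the start, where the annotation rule leaves out regions inside gene bodies. The dashed line marks the median of 26.1 kb.

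The 161 distal regions of the testosterone table lay at a median of 35.1 kb (24.0 to 45.2) from a start. Beyond 100 kb lay 41 of them (25.5%, 19.4 to 32.7), against 496 distal control regions (15.2%, 14 to 16.5). Of the testosterone regions 68.3% were upstream, under the same annotation rule and with the same limit.

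The distance to any RefSeq start, lncRNAs included, was shorter, with a median of 13.5 kb. A start lay on 141 distal regions (4.32%), within 1 kb of 387 (11.8%) and within 3 kb of 589 (18.0%). A lncRNA gene body was overlapped by 884 (27.1%) and a coding gene body by 226 (6.92%), so a part of the regions placed outside genes by the authors' annotation lay in RefSeq genes. A lncRNA start lay within 1 kb of 348 distal regions (10.7%, 9.64 to 11.8), where the share of all control regions was 11.8%. Those 348 had a median fold of 5.29, against 4.68 in the other distal regions, and were 29 of the 100 distal regions of largest fold. A testosterone region overlapped 1 of the 348, where the share of all distal regions was 0.949%.

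Small RNA genes stood beside 123 distal regions (3.77%, 3.17 to 4.48), counted within 1 kb, where the share was 2.31% of all control regions, 0.479% of intronic and 2.32% of promoter regions. Many of these genes are read by RNA polymerase III, which makes transfer RNAs (tRNAs) and other short RNAs and whose active genes are known to lie in open, acetylated chromatin. The 123 had a median fold of 5.36, against 4.70 in the other distal regions, and were 11 of the 100 of largest fold. None of them was overlapped by a testosterone region, a count of 0 that allows a share of up to 2.44%, so no difference from the other distal regions was detectable at this number.

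tRNA genes were the largest group. They lay within 1 kb of 61 distal regions (1.87%, 1.46 to 2.39), of 1 intronic region (0.0399%) and of 54 promoter regions (0.425%), where the share of all control regions was 0.607%. These regions stood by 71 of 443 tRNA genes, had a median fold of 5.41 and reached 11.2. Chromosome 6 had 19 of them, chromosome 16 had 10 and chromosome 17 had 8. As a share of each chromosome's tRNA genes the order was another, with 19 of 155 (12.3%) on chromosome 6, 11 of 26 (42.3%) on chromosome 16 and 10 of 33 (30.3%) on chromosome 17, against 71 of 443 (16%) of all tRNA genes. The regions flanked the genes more than they covered them. Of the 71 tRNA genes 7 were overlapped, and the others lay at a median of 164.5 bp from the region's edge.

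Other small RNA genes also had distal regions nearby. The region at TERC, which encodes the RNA of telomerase, had a fold of 7.40 and overlapped the gene, and the region 72 bp from the vault RNA gene VTRNA1-2 had one of 7.54. Of the Y RNA genes, whose products bind the Ro protein, RNY5 had a region of fold 10.2 at 242 bp and RNY3 regions of fold 8.30 and 6.08 at 351 and 912 bp, all on chromosome 7. RNU6-1, a gene of the U6 spliceosomal RNA, had a region of fold 7.07 at 482 bp. Small nuclear RNA genes stood by 16 distal regions in all. Variant U1 genes on chromosome 1 were overlapped by regions of fold 19.9 at RNVU1-2A, 12.8 at RNVU1-30, 9.06 at RNVU1-8, 8.68 at RNVU1-3, 6.31 at RNVU1-15, 6.29 at RNVU1-6 and 4.70 at RNVU1-26, with the limit on near-identical copies given above.

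**Figure D3:**
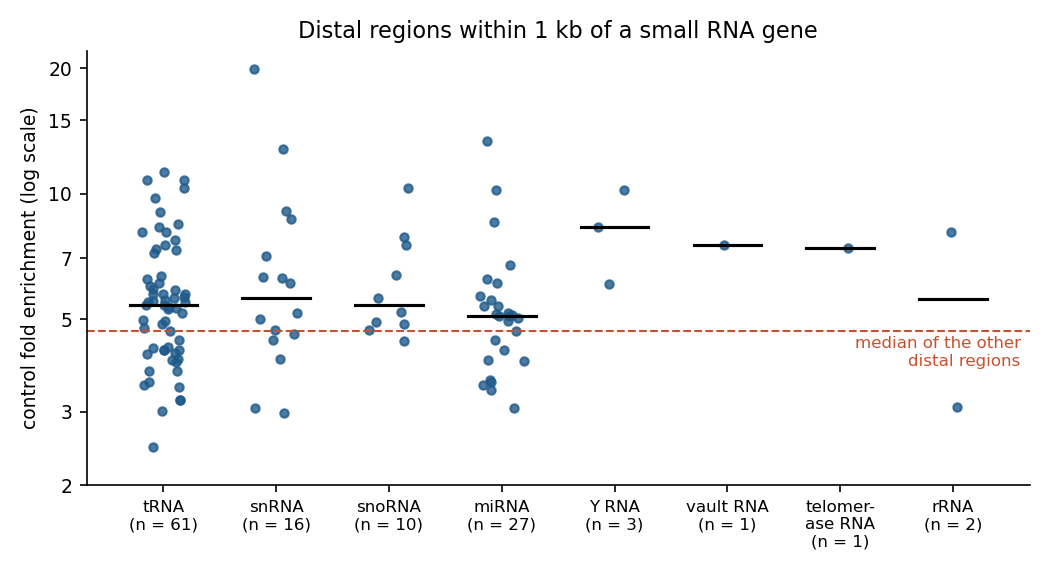
Control fold enrichment (vertical axis, log scale) of the distal regions within 1 kb of a small RNA gene, 1 point per region and grouped by kind of RNA, with black bars at the group medians. The dashed line is the median of the other distal regions, 4.70, and the 61 regions at tRNA genes have a median of 5.41.

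Distal regions occurred in groups. Neighbors within the joining distance given with the processing were taken as 1 stretch, which put 1699 of the 3266 (52.0%, 50.3 to 53.7) in a stretch with at least 1 other, against 1086 of 2504 intronic regions (43.4%, 41.4 to 45.3). Such shares depend on the number of regions in a class and on the sequence it can occupy. They were not adjusted for either, so they do not rank the classes by clustering. There were 542 stretches of distal regions and 1567 single regions. Stretches of 5 or more regions numbered 73 and held 568 regions (17.4%), and 16 of them had 10 or more. The median gap to the next distal region was 10.5 kb and to the nearest promoter region 44.2 kb. No other control region lay within 100 kb of 289 distal regions (8.85%).

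The densest stretches lay on chromosomes 9, 22 and 10. The one with most regions, 21, ran from 129382957 to 129438129 on chromosome 9 between IER5L and NTMT1, with folds of 3.29 to 6.76. Next to it, 17 regions from 129452670 to 129500822 had folds of 3.76 to 13.8, covered 37.9% of the stretch and include the LINC00963 start printed above. The longest stretch, 72.1 kb on chromosome 22 (46057660 to 46129807), had 20 regions with folds of 3.10 to 13.8 between PRR34 and PPARA, a fatty acid receptor gene. On chromosome 10, 17 regions from 132418551 to 132479033 lay between PWWP2B and INPP5A, an inositol phosphatase gene. A stretch of 15 regions on chromosome 22 (49934270 to 49976309) lay by CRELD2 and PIM3, a kinase gene, and spanned 4 promoter regions. On chromosome 5, 10 regions from 149440560 to 149485193 lay by IL17B and CSNK1A1, the casein kinase 1 alpha gene, with folds of no more than 5.87. A testosterone region lay in 2 of these 6 stretches, the one on chromosome 10 and the 17-region stretch at NTMT1.

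The share of distal regions among all control regions varied by chromosome. It was lowest on chromosome 19, with 165 of 1617 (10.2%, 8.82 to 11.8), and on chromosome 11 (10.7%). It was highest on chromosome 22, with 180 of 670 (26.9%, 23.6 to 30.3), followed by chromosomes 21 (22.5%) and 7 (22.2%). Chromosomes 22, with 180 distal control regions, and 13, with 24, had none of the 161 distal testosterone regions.

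The 3266 regions were nearest to 1714 genes. Of these genes 1099 (64.1%) had 1 distal region, 122 had 5 or more and 21 had 10 or more. The 122 genes took 946 of the regions (29.0%). Of the nearest genes 1686 were RefSeq coding genes, 8.44% of all 19974. A control promoter region was present at 1058 of the 1686 (62.8%), against 42.7% of all coding genes. Of the 122 genes with 5 or more distal regions, 99 had one.

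NTMT1 had the most distal regions, 44, all upstream at 5.65 to 210 kb, with a median fold of 4.93. IER5L, an immediate early response gene, had 23, with 22 upstream and a highest fold of 11.5. ID2, an inhibitor of bHLH factors induced by BMP signaling, had 19 at 7.18 to 223 kb, with a highest fold of 7.21. IRF2BPL, a transcriptional regulator, had 17 (highest fold 9.82), PWWP2B, a chromatin protein gene, 17 (9.31), and ERRFI1, an inhibitor of the EGF receptor induced by glucocorticoids, 17 (6.99). The next genes were LIF, an interleukin 6 family cytokine, with 16 (7.63), SPRY1, an inhibitor of receptor tyrosine kinase signaling, with 15 (9.39), MKLN1, muskelin, with 14 (9.27), and PTMA, prothymosin alpha, with 13 (9.31). PIM3, SLC38A2 and SPIDR also had 13, and PTMA was taken as the tenth for its larger highest fold. The 10 genes so chosen all had control promoter regions, from 2 at PWWP2B, ERRFI1 and SPRY1 to 5 at LIF, while SPIDR, tied with the tenth, had 0. None of the 10 had a testosterone promoter region, where 48 of all 1714 nearest genes had one. A testosterone region overlapped distal regions of 5 of the 10, namely NTMT1, IER5L, ID2, IRF2BPL and ERRFI1. Of all 1714 nearest genes 29 had such a distal region, but the 10 were chosen for having most distal regions.

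**Figure D4:**
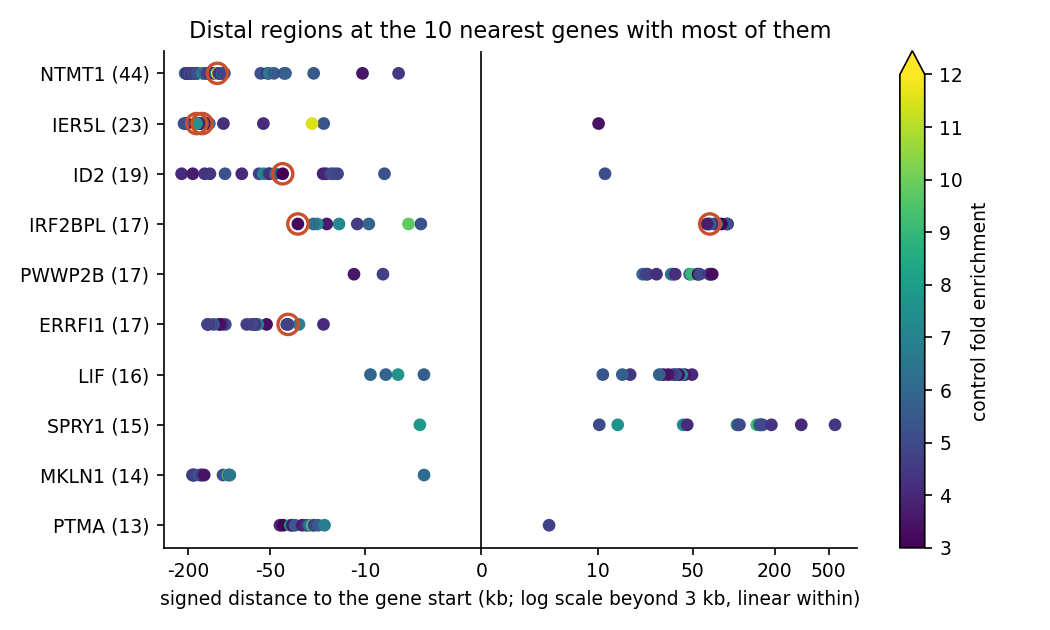
Distal regions of the 10 nearest genes with most of them (rows, number in brackets), placed by signed distance to the gene start (horizontal axis, kb, negative is upstream, log scale beyond 3 kb) and colored by control fold enrichment. Orange rings mark regions overlapped by a testosterone region, 2 each at IER5L and IRF2BPL and 1 each at NTMT1, ID2 and ERRFI1.

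Of 16 genes listed as granulosa identity factors 3 were the nearest gene of a distal region (18.8%, against 8.44% of all coding genes). NR2F2, 1 of the 3, is a nuclear receptor of stromal and theca cells, so the share rests in part on it. Of the 12 granulosa marker genes 2, FOXL2 and NR5A1, had distal regions. FOXL2, the factor that maintains granulosa identity, had 4, all downstream of its start at 3.72 to 31.4 kb with folds of 3.76 to 6.81. NR5A1, steroidogenic factor 1, had 1 of fold 3.66 at 5.39 kb. NR2F2 had 1 of fold 12.3 at 7.44 kb. The 6 regions had a median fold of 5.48, and the 5 at FOXL2 and NR5A1 one of 4.70, which is also the median of all distal regions. None of the 6 was overlapped by a testosterone region, where the share of all distal regions was 0.949%.

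Of 15 steroidogenesis genes 3 had distal regions (20%, against 8.44% of all coding genes). CYP11A1, whose enzyme cleaves the cholesterol side chain in the first step of steroid synthesis, had 7, all upstream at 5.87 to 21.3 kb, with folds of 3.20 to 4.39 and no control promoter region. SCARB1, the receptor that takes up HDL cholesterol, had 11 with folds of 3.06 to 8.14. HSD3B1, which makes progesterone from pregnenolone, had 1 of fold 3.77. The 19 regions had a median fold of 4.08, below the 4.70 of all distal regions. None was overlapped by a testosterone region, where the share of all distal regions was 0.949%.

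In the list of gonadotropin and TGF-beta family signaling, 5 of 22 genes (22.7%, against 8.44% of all coding genes) had 36 distal regions, and the 3 with most were genes of the ID family, whose products block bHLH factors. Beside the 19 of ID2, ID3 had 7 with folds up to 8.36 and ID1 had 4 with folds up to 11.9. SMAD6 and SMAD7, the inhibitory SMADs, had 3 each. The list's median fold was 4.92, and 1 of its 36 regions, at ID2, was overlapped by a testosterone region, against 0.949% of all distal regions.

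AP-1 and immediate early genes had distal regions most often of the 14 lists, at 12 of 20 genes (60%), against 8.44% of all coding genes. The list has 45 distal regions with a median fold of 4.93. JUND had 10 at 3.11 to 19.3 kb upstream, with a median fold of 5.51, and 1 was overlapped by a testosterone region. It was the only 1 of the list's 45 so overlapped, against 0.949% of all distal regions. MYC had 10, all downstream at 56.2 to 590 kb, and IER2 had 6. EGR1, a factor induced by LH in granulosa cells, had 1 of fold 11.6 at 25.9 kb, which holds the start of the lncRNA LOC124901078. JUN had 4, of which the strongest had a fold of 11.1. A control promoter region was present at 18 of the 20 genes, against 42.7% of all coding genes. It was present at 12 of 15 genes of the Hippo list and at 6 of 18 of the extracellular matrix list. Genes marked at their own promoter were thus common in this list, and the part of that in the count was not tested.

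In the androgen and glucocorticoid response list 3 of 15 genes (20%, against 8.44% of all coding genes) had 23 distal regions, namely ERRFI1 with 17, DUSP1 with 5 up to a fold of 10.0, and KLF9, a glucocorticoid-induced factor, with 1 of fold 5.58. The median fold was 4.82, and 1 of the 23 regions, at ERRFI1, was overlapped by a testosterone region, against 0.949% of all distal regions. Of the Hippo pathway and its targets 3 of 15 genes (20%, against the same 8.44%) had distal regions, with 2 each at ANKRD1 and AMOTL2 and 1 at TEAD1, all at folds of 5.23 or less.

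Of 18 extracellular matrix and adhesion genes 5 had distal regions (27.8%, against 8.44% of all coding genes). ITGAV, an integrin gene, had 2, and FBN1, fibrillin 1, had 1 of fold 5.41. Of 16 cytoskeleton and mesenchymal genes 6 had them (37.5%), with 3 at ANXA1, 2 at MYH9 and 1 of fold 5.86 at VIM, vimentin. Of 15 cell cycle genes 2 had them (13.3%), CCND1 with 3 and CCNE1 with 1. None of the regions in these 3 lists or of the Hippo list was overlapped by a testosterone region, where the share of all distal regions was 0.949%.

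Markers of other cell types were the nearest gene in 4 cases. Of the epithelium markers these were EPCAM and KRT8, with 3 regions and a median fold of 3.69. Of the oocyte markers ZP3 had 2, and of the theca and stroma markers TCF21 had 1 at 300 kb. The 5 blood and immune and the 4 endothelium markers had none.

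A region called after testosterone overlapped 31 of the 3266 distal regions by at least 1 bp (0.949%, 0.670 to 1.34), where the share of all control regions was 0.884%. It was 0.759% (0.486 to 1.18) of intronic regions and 0.921% (0.769 to 1.10) of promoter regions. The intervals of the 3 classes overlapped. The 31 had a median control fold of 5.64 against 4.70 in the other distal regions, a median width of 487 against 356 bp, and a median local background of 2.60 against 2.0. The median overlap was 254 bp. With at least 50% overlap in both directions the share was 0.429%, within 1 kb it was 2.05% and within 10 kb 7.72%. At a -log10 q of at least 5 in both tables it was 0.0733%, from 1 of 1364 distal regions.

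Over all distal regions, the share per region was higher in long stretches. It was 0.638% (0.347 to 1.17) of single regions, 0.707% (0.359 to 1.39) of regions in stretches of 2 to 4, and 2.29% (1.34 to 3.88) in stretches of 5 or more, where 13 of 568 were overlapped. Strength and width moved with stretch size, with median folds of 4.64, 4.70 and 4.83 and median widths of 340, 364 and 434 bp. In the narrower part of the distal regions, up to the median width, the shares were 0.228%, 0.729% and 1.44%, from 2, 4 and 3 regions, and in the wider part 1.16%, 0.687% and 2.79%, from 8, 4 and 10. Without the regions nearest to NTMT1 or IER5L the share in stretches of 5 or more was 1.96% (1.07 to 3.58). In single regions it was then 0.640% (0.348 to 1.17). In this subset and in each width part, the intervals of single regions and of stretches of 5 or more overlapped. A testosterone region lay somewhere in 16 of the 73 stretches of 5 or more (21.9%), whose total span was 1654 kb, in 18 of the 469 of 2 to 4 (3.84%), which spanned 2782 kb, and on 10 of the 1567 single regions (0.638%), which spanned 657 kb. Per Mb of span, gaps included, that was 13.3 testosterone regions in stretches of 5 or more and 7.55 in those of 2 to 4. In single regions it was 15.2, but their span is the regions alone and holds no gap. By span, single regions and stretches are thus unlike measures. Per Mb covered by distal regions themselves, the overlapped distal regions numbered 38.2, 14.5 and 15.2.

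By control fold, cut into 5 groups of equal number, 14 of the 653 regions of the highest group were overlapped (2.14%, 1.28 to 3.57), and 0.459% to 0.919% in the other groups. By width, the share was 0.459% in the narrowest and 1.68% in the widest of 5 such groups. By distance to the gene start, it was 1.22% within 10 kb, 0.916% from 10 to 50 kb and 0 of 47 beyond 500 kb, with intervals that overlapped throughout.

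**Figure D5:**
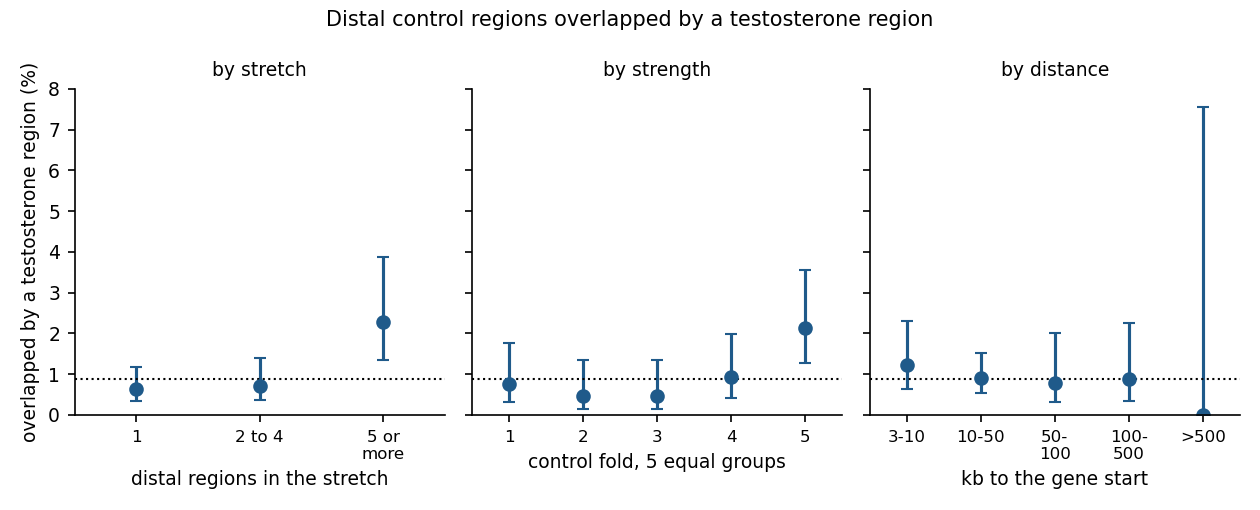
Percent of distal control regions overlapped by a testosterone region (vertical axis) by regions in the stretch, by 5 equal groups of control fold and by distance to the gene start, with Wilson 95% intervals. The dotted line is the 0.884% of all control regions, and the highest points are stretches of 5 or more at 2.29% and the highest fold group at 2.14%.

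Of the 31 shared regions, the strongest in control cells was the 2371 bp region nearest to NTMT1, where the testosterone region had 279 bp and a fold of 3.58. The next were near ZSCAN16, a zinc finger gene, at a control fold of 11.9, TRIM74 at 10.3 and IER5L at 8.95 (chromosome 9, 129335817 to 129338138). BTG2 followed at 8.30, GPR132, a G protein coupled receptor gene, at 7.84, a second IER5L region at 7.07, HNRNPLL, a splicing regulator, at 7.04, CTDSP2, a phosphatase gene, at 6.81, and IRF2BPL at 6.59. Each table's folds are scaled to its own libraries, so the 2 folds of a region are not a measured change. Of the 29 nearest genes of shared regions, 23 had a control promoter region and 1 had a testosterone promoter region. Of all 1714 nearest genes of distal regions, 1066 (62.2%) had the first and 48 the second.

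Seen from the testosterone table, 32 of its 161 distal regions lay on a distal control region (19.9%, 14.4 to 26.7), and these were all of those that lay on any control region. The share of all testosterone regions on a control region was 28.1%. Of the 161, 112 (69.6%, 62.1 to 76.1) lay within 10 kb of a control region, against 78.1% of all testosterone regions, and 8 lay more than 100 kb from any. The 129 that missed distal control regions had a median gap of 7.01 kb to the nearest of them, and 21 of these lay inside a stretch.

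Of the distal testosterone regions on a control region, the largest testosterone fold was 6.49 near CBSL on chromosome 21, where the control region had a local background of 12 and a fold of 3.75. It was followed by EML4, a microtubule protein gene, at 6.47, GPR132 at 6.09, and JUND and CTDSP2 both at 6.03. Of those not on a distal control region, the largest fold was 6.96 near ADGRE5, an adhesion receptor gene, at 160 bp from a distal control region. ZFP64 followed at 6.93 and a gap of 5278 bp, GPR89A at 6.47 and 50359 bp, ZNF184 at 6.19 and 37127 bp, and ARID1B, a subunit of the BAF remodeling complex, at 6.16 and 1415 bp. Near SLC38A2, an amino acid transporter gene, 3 testosterone regions lay within a stretch of 7 distal control regions (chromosome 12, 46428421 to 46459829) and overlapped none of them. This stretch was chosen after its values were seen.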

How the data were processed

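Called H3K27ac regions were analysed from 1 control and 1 testosterone table, each of 1 IP against its own input. Per the submitters' processing notes, Bowtie2 2.0, MACS2, ChIPseeker and bedtools were used, with builds hg38 and mm10 named. No source used here gives the caller settings. The authors deposited the pileup (signal), the fold enrichment (a ratio, pileup plus 1 over background plus 1), and significance as -log10 p and -log10 q. Both significance headers of the testosterone table were lost, so these columns were identified by position. Of 9678 control gene symbols matched to RefSeq, 9669 overlapped its GRCh38.p14 position, so positions were read as GRCh38.

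Members were the control rows annotated "Distal Intergenic" or "Downstream". Distances and nearest genes are the authors'. Overlap needed 1 bp and stretches joined regions within 12.5 kb. Local background was solved from pileup and fold. Python 3.11.15, numpy 2.4.6 and pandas 2.3.3 were used, and the code was tested on simulated data. The plan named the 6 regions of largest fold, 5 of largest pileup, 4 widest, 4 farthest and 3 past a gene's end, the top 10 nearest genes and shared regions, the 5 fullest and longest stretches, 5 testosterone regions on and off members, and per list the 3 genes with most regions and any with a shared region. Regions at small RNA genes, starts and high backgrounds were chosen after their values were seen. The members and lists were chosen with earlier results of these data known. Some items that the rule takes are not reported here. No test was made, since each condition had 1 IP library.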

Additional observations from a re-analysis of the deposited data

How the results depend on the processing

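Of 42 alternatives, 26 kept the value within its interval or 1.5 times the count and 16 moved it. Most values were single medians, counts or shares, which have no direction to reverse. The 26 include the use of every sequence name, which added no distal region and so left each value unchanged. At a -log10 q of at least 5 in both tables, 1364 distal regions remained with a median fold of 5.97, 40.4% lay in a stretch with another, and 0.0733% were overlapped by a testosterone region (4 distal testosterone regions met this limit). At a fold of at least 4 the median fold was 5.18 and 45.6% lay in a stretch. Without the regions past a gene's end the median distance was 28.2 kb. Requiring 50% overlap both ways gave 0.429% of control and 8.70% of testosterone distal regions, sharing within 1 kb gave 2.05% and 34.2%, and within 10 kb 7.72% and 62.1%. Joining at 5 kb gave 42.4% in stretches and at 25 kb 59.4%. The median of distal relative to promoter regions was 0.894 by fold and 0.789 by pileup. The thresholds and distances set which regions are counted, and the cause of the pileup difference was not tested. Chosen after seeing the data, joining at 5 or 25 kb gave 2.65% and 2.09% overlapped in stretches of 5 or more. No paired analysis was possible because each condition had 1 IP library and no result came from a test. Regions below the caller's threshold were not seen, so a region missing from the testosterone table is not shown to lack the mark.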
